A study of Homo sapiens with 6 samples.

Results

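The 58 genes described here encode the cytosolic translation initiation, elongation and release factors and their closest regulators. They were chosen by name, through the array's platform annotation, as a list of known factors sorted by complex: the subunits and partners of eIF2, eIF3 and eIF4F, the elongation factors, and the release and recycling factors. Of the 58, 53 had a probe set that the annotation gives to that gene alone, with 148 such probe sets in all, and 52 passed the filter on low signals and were tested. The array held such a probe set for 19775 genes, of which 13572 were tested. EIF4A1, EIF4G3, EEF1B2, EEF1E1 and EEF1G had none and were not analysed here. The only probe set given to EIF3C alone lay below the filter, at 0.84, 0.96 and 4.97 on the log2 scale after HHT and 4.37, 4.71 and 4.53 in vehicle. Probe sets given to several genes were not used, so these values may not stand for the level of EIF3C.

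Kasumi-1, an established line from an acute myeloid leukaemia with the t(8;21) translocation that fuses RUNX1 to RUNX1T1, was given 20 nM homoharringtonine (HHT) for 24 h or vehicle for 24 h. RNA from 3 HHT samples and 3 vehicle samples was measured on one-colour Affymetrix 3' arrays. Whether each sample was a separate culture is not stated in the labels, so the p-values rest on a spread between samples that may be technical. The titles number all vehicle arrays before the HHT arrays, and that order and the treatment cannot be told apart.

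A ribosome starts when initiation factors bring the initiator tRNA and a messenger RNA to the small subunit. eIF2 carries the tRNA, eIF2B recharges eIF2 with GTP, eIF4F binds the cap and eIF3 holds the complex together. Elongation factors then deliver each aminoacyl-tRNA and move the ribosome along, and release and recycling factors free the finished chain and split the ribosome. HHT is a plant alkaloid, in clinical use as omacetaxine, that binds the ribosome and blocks the first steps of elongation.

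All values are log2 signals, so a difference of 1 is a 2-fold difference in signal. Where a gene had several single-gene probe sets, the one with the highest mean stands for it. It was called when limma's moderated test, with Benjamini-Hochberg adjustment over all 32768 tested probe sets, gave an adjusted p under 0.05; rose and fell are used of called genes only. The deposited signals had been scaled to 1 trimmed mean, between 500.06 and 500.07 on every array. The hybridisation controls, meant to be spiked in equally, then read 11.63 to 11.75 after HHT and 11.96 to 12.01 in vehicle, a difference of -0.28, and the array medians differed by -0.24. Each comparison was therefore repeated under 3 other scalings: equal array medians, quantile normalization, and equal means of the hybridisation controls. These scalings moved the median change of all genes, which was -4.15e-05 as deposited, to 0.24, 0.050 and 0.28. Of the markers of the line, KIT, RUNX1T1, CD34 and MPO were measured above the filter level of 4.80, while CD33 was not analysed here. KIT averaged 14.22 after HHT and 14.83 in vehicle, CD34 8.03 after HHT and 9.20 in vehicle, and MPO 12.63 after HHT and 14.39 in vehicle, and all 3 fell; RUNX1T1 differed by -0.029 and was not called. Among the markers of other cell types analysed here, CD3D averaged 11.76 after HHT and 11.62 in vehicle, EPCAM averaged 12.93 after HHT and 13.69 in vehicle, and the rest stood at vehicle means of 7.48 or lower. The part of these marker differences in the results was not tested. Fewer cells of one kind and less RNA per cell cannot be told apart in such bulk samples.

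Most of the factor transcripts were lower after HHT in the deposited scaling, and a smaller set kept 1 direction under the 4 scalings compared. Of the 52 tested genes, 30 fell, 7 rose and 15 were not called, where 24.2% of all genes tested fell and 29.6% rose. The share that fell was 57.7%. Called in either direction were 71.2% of the factors and 53.8% of all genes. The median change of the factors was -0.22. Changes of at least 1 on the log2 scale were 5 falls and 1 rise, and 15.5% of all genes had one. The factors were bright probe sets: their mean signals ranged between 5.12 and 14.98, with a lower quartile of 11.22. Of the 2971 genes at or above that level, 42.9% fell and 32.7% rose, with a median change of -0.075. The HHT and vehicle arrays did not overlap for 39 of the 52 factors (75%), against 62.2% of all genes. The spread between replicates was small, with a median SD of 0.0638.

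The split between falls and rises depended on the scaling. When array medians were set equal, 11 fell and 13 rose. Quantile normalization gave 14 falls and 16 rises, and equalised hybridisation controls gave 11 and 17, so that 18.9% of the calls were rises as deposited and 54.2%, 53.3% and 60.7% under the other scalings. The median change of the factors was then 0.023, 0.021 and 0.068, each below that of all genes, 0.24, 0.050 and 0.28. The shares of all genes called under each of these scalings were not counted here. Equal medians and equal hybridisation controls raised the change of every gene by the same amount, 0.24 and 0.28. They could not turn a rise into a fall, so keeping a call under them says less for a rise than for a fall. Under all 4 scalings, 11 factors fell (21.2%, against 12.1% of all genes tested) and 7 rose (13.5%, against 27.4%). The 11 were EIF1AX, EIF2S3, EIF3B, EIF3J, EIF4EBP1, EIF4G1, EIF5A, EEF2K, ETF1, GSPT1 and ABCE1, and the 7 were EIF1B, EIF2B1, EIF2B2, EIF2B4, EIF3G, EIF5A2 and MCTS1. Each of these 18 also stayed called when any 1 of the 6 arrays was left out.

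**Figure D1:**
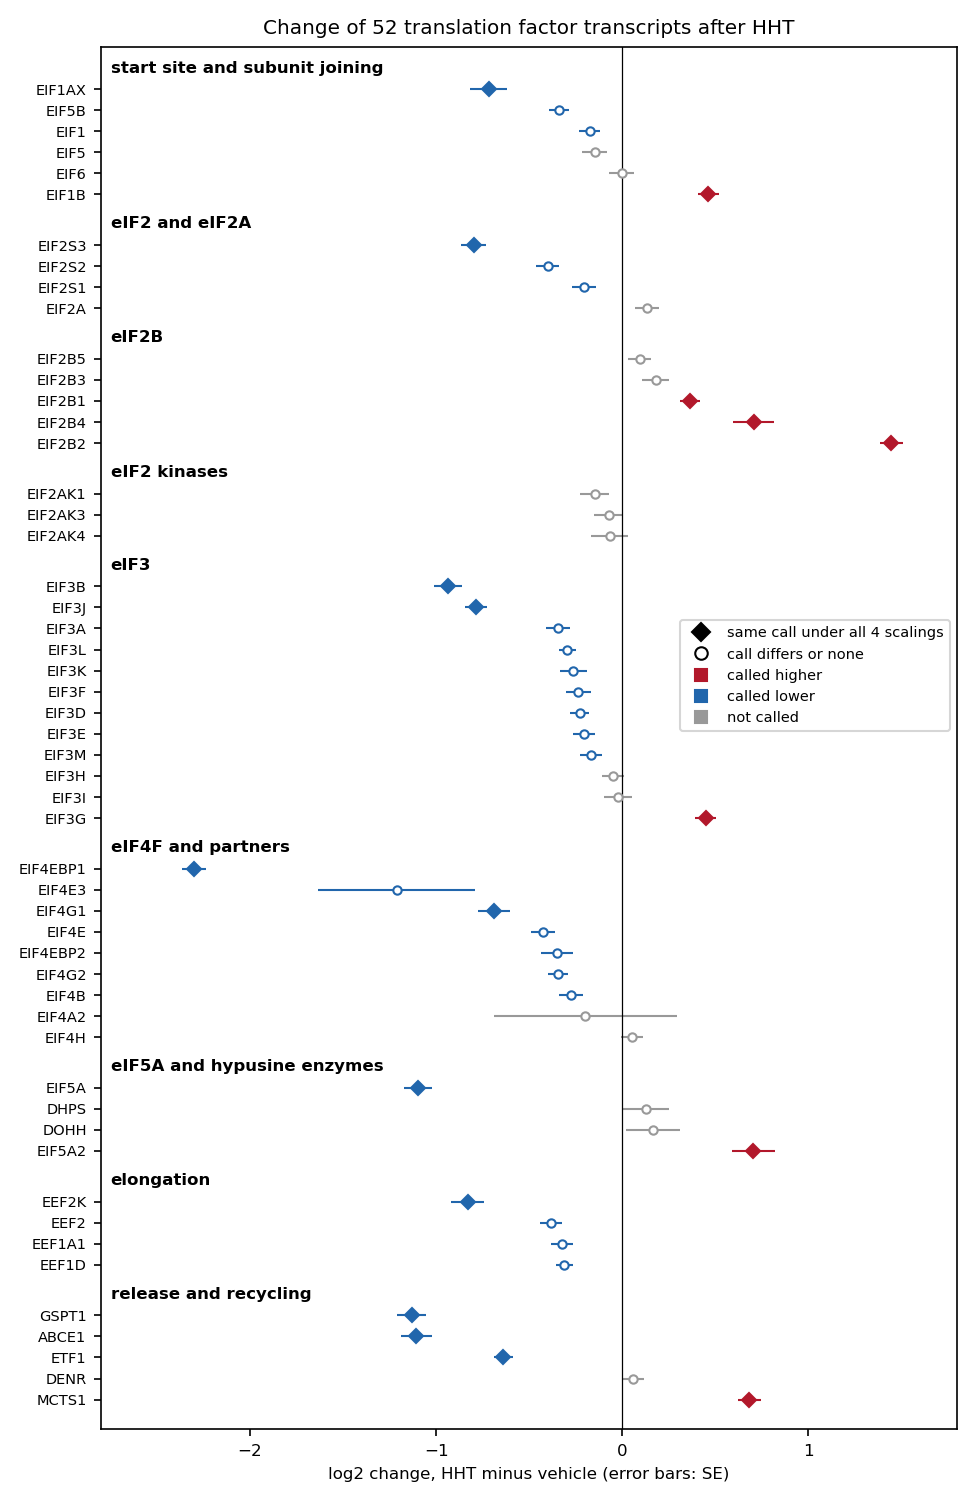
Log2 change of each of the 52 tested factors, HHT minus vehicle, grouped by complex, with the standard error as a bar; filled diamonds mark genes called the same way under all 4 scalings and open circles the rest. The 18 diamonds lie between -2.30 for EIF4EBP1 and 1.45 for EIF2B2, and the eIF3 and elongation rows hold mostly small decreases drawn as open circles, whose call depends on the scaling.

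**Figure D2:**
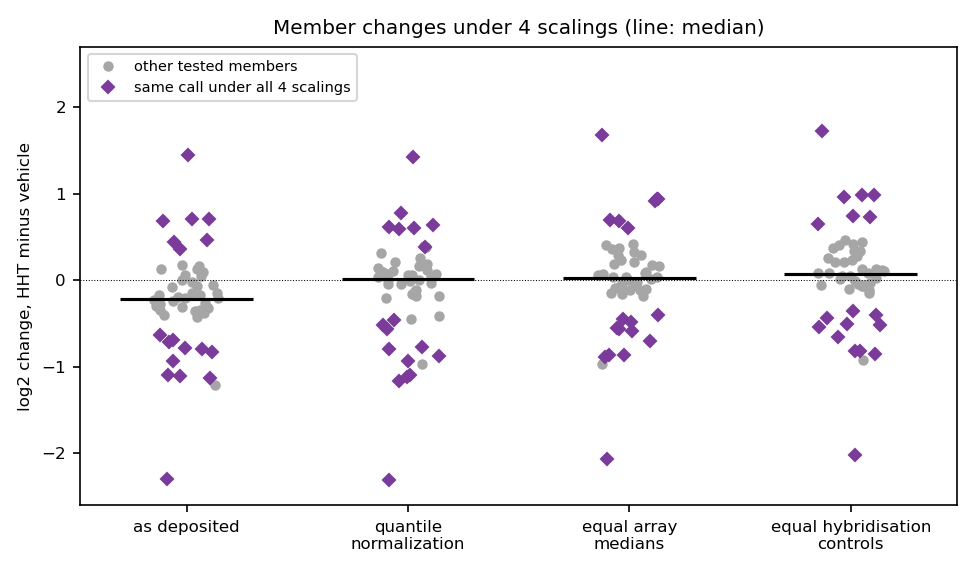
Log2 changes of the 52 factors under the deposited scaling and 3 others; each point is a gene, the line is the median and diamonds are the 18 genes with 1 call throughout. The median stands at -0.22 as deposited, at 0.021 after quantile normalization, at 0.023 with equal medians and at 0.068 with equal hybridisation controls, while every diamond keeps its side of 0.

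The 5 subunits of eIF2B, the exchange factor that returns eIF2 to its GTP-bound form, were all higher on each HHT array than on any vehicle array, and 3 of them rose. Of all genes tested, 62.2% did not overlap in either direction and 29.6% rose. EIF2B2, the beta subunit, read 12.22, 12.16 and 12.17 after HHT and 10.81, 10.71 and 10.70 in vehicle. That is a rise of 1.45 (SE 0.0625, adjusted p = 6.52e-08, limma), or 2.73-fold, the largest among the 52 factors. EIF2B4, the delta subunit, read 11.172, 10.996 and 10.982 after HHT and 10.11, 10.38 and 10.54 in vehicle, a rise of 0.71 (SE 0.109). The vehicle arrays of EIF2B4 spread more than its HHT arrays, and its dimmer probe set also rose, by 0.58. EIF2B1, the alpha subunit, read 12.24, 12.19 and 12.25 after HHT and 11.86, 11.87 and 11.85 in vehicle, a rise of 0.37 (SE 0.0546). EIF2B3, the gamma subunit, and EIF2B5, the catalytic epsilon subunit, differed by 0.18 and 0.094 and were not called as deposited or after quantile normalization, but both were called higher under the other 2 scalings. The dimmer probe set of EIF2B5 differed the other way, by -1.25 (adjusted p = 0.0926, limma).

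Of eIF2 itself, the gamma subunit fell under every scaling. EIF2S3, which encodes it and binds GTP, read 12.67, 12.76 and 12.73 after HHT and 13.61, 13.56 and 13.39 in vehicle. It fell by 0.80 (SE 0.0658, adjusted p = 3.62e-06, limma), or 1.74-fold, and its other 2 probe sets fell by 0.74 and 0.71. EIF2S2, the beta subunit, and EIF2S1, the alpha subunit whose phosphorylation shuts initiation down, fell by 0.40 and 0.20 as deposited, but neither was called under any other scaling, and EIF2S1 changed sign with equal medians (0.036) and equal hybridisation controls (0.081). The call of EIF2S1 was lost without HHT replicate 3 or vehicle replicate 1. EIF2A, an alternative carrier of initiator tRNA that is no subunit of eIF2, differed by 0.13 and was called higher under the other 3 scalings. The eIF2 kinases EIF2AK1 (HRI), EIF2AK3 (PERK) and EIF2AK4 (GCN2) were not called under any of the 4 scalings, with changes of -0.15, -0.073 and -0.067 as deposited and signs that turned with equal medians and equal hybridisation controls. Dimmer probe sets of EIF2AK1 and EIF2AK4 fell by 0.47 and 1.72.

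Factors that select the start codon and join the subunits divided. EIF1AX, which encodes eIF1A and with eIF1 keeps the scanning ribosome open, read 12.72, 12.95 and 12.86 after HHT and 13.35, 13.57 and 13.77 in vehicle. It fell by 0.72 (SE 0.0979, adjusted p = 0.000134, limma), or 1.64-fold, and its 3 other probe sets fell too, with changes from -1.06 to -0.83. EIF1B, a close relative of EIF1, read 12.95, 13.03 and 12.95 after HHT and 12.46, 12.54 and 12.54 in vehicle, and rose by 0.46 (SE 0.0551, adjusted p = 4.9e-05, limma), or 1.38-fold. EIF1 itself read 14.73, 14.68 and 14.73 after HHT and 14.995, 14.861 and 14.802 in vehicle. Its change of -0.17 (SE 0.0560, adjusted p = 0.0258, limma) was a fall as deposited, lost when any 1 HHT array was left out, and a call of higher, at 0.18, after quantile normalization. EIF5B, the GTPase of subunit joining, fell by 0.34 as deposited and was also called after quantile normalization, at -0.16, but was not called with equal medians or equal hybridisation controls. EIF5, the GTPase activator of eIF2, differed by -0.15 and was not called under any scaling, with its sign turned under the other 3. EIF6, which keeps the large subunit apart, differed by -0.0017 and was called higher, at 0.28, with equal hybridisation controls.

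Within eIF3, the scaffold on the small subunit, 9 of the 12 tested subunits fell as deposited and 1 rose. Of all genes 24.2% fell and 29.6% rose, and of those with a mean signal of at least 11.22, 42.9% fell. The 3 that kept a call under every scaling were EIF3B, EIF3J and EIF3G. EIF3B, a core subunit with an RNA-recognition motif, read 11.73, 11.75 and 11.68 after HHT and 12.55, 12.59 and 12.83 in vehicle. It fell by 0.94 (SE 0.0768, adjusted p = 3.52e-06, limma), or 1.91-fold, and its 4 other tested probe sets fell too, with changes from -1.75 to -0.74. EIF3J, a loosely bound subunit that acts at the decoding site, read 11.33, 11.41 and 11.38 after HHT and 12.17, 12.17 and 12.13 in vehicle, and fell by 0.79 (SE 0.0576). EIF3G, which meets EIF3B in the same module, went the other way: it read 12.83, 12.82 and 12.87 after HHT and 12.31, 12.43 and 12.43 in vehicle, and rose by 0.45 (SE 0.0563, adjusted p = 7.35e-05, limma), or 1.36-fold. For all 3 genes every HHT array lay on 1 side of every vehicle array.

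The other eIF3 subunits had smaller changes, between -0.34 for EIF3A, the largest subunit, and -0.022 for EIF3I. EIF3A, EIF3K and EIF3L fell as deposited and were not called under any other scaling, with EIF3K turned to 0.033 by quantile normalization and to 0.022 by equalised hybridisation controls, and EIF3L to 0.10 by quantile normalization. EIF3D, EIF3E, EIF3F and EIF3M fell by 0.23, 0.20, 0.23 and 0.17 as deposited, were not called with equal medians or equal hybridisation controls, and were called higher after quantile normalization. The call of EIF3M held in 1 of 6 fits that left out an array, the one without vehicle replicate 1, and that of EIF3E was lost without HHT replicate 1 or 2. EIF3H and EIF3I were not called as deposited, and with equal hybridisation controls both were called higher.

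Cap recognition held the largest decrease among the 52 tested factors. EIF4EBP1, the repressor that binds eIF4E when mTOR is inactive, read 10.10, 10.12 and 10.19 after HHT and 12.50, 12.42 and 12.40 in vehicle. It fell by 2.30 (SE 0.0645, adjusted p = 8.47e-09, limma), or 4.94-fold, with 1 tested probe set. Its relative EIF4EBP2 read 10.56, 10.59 and 10.49 after HHT and 10.94, 10.73 and 11.01 in vehicle. It fell by 0.35 (SE 0.0855, adjusted p = 0.00614, limma), a call that held after quantile normalization and was not called with equal medians or equal hybridisation controls. EIF4G1, the scaffold of eIF4F, read 10.43, 10.35 and 10.62 after HHT and 11.06, 11.16 and 11.24 in vehicle, and fell by 0.69 (SE 0.0864, adjusted p = 7.26e-05, limma). Its dimmer probe set differed by -0.21 and was not called.

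EIF4E, the cap-binding subunit, read 11.76, 11.87 and 11.77 after HHT and 12.12, 12.30 and 12.25 in vehicle. It fell by 0.42 (SE 0.0666, adjusted p = 0.000362, limma), as did its 3 other tested probe sets, with changes from -0.69 to -0.38. It was also called lower after quantile normalization, and not with equal medians or equal hybridisation controls. EIF4E3, a cap-binding relative, was dim, at 5.02, 4.98 and 4.44 after HHT and 6.33, 6.15 and 5.60 in vehicle. The groups did not overlap, yet its change of -1.21 (SE 0.422, adjusted p = 0.0369, limma), at least 2.13-fold lower with each array set to at least 4.80, was called under the deposited scaling only and in 2 of 6 fits that left out an array. It was lost without HHT replicate 2 or 3 and without vehicle replicate 1 or 2. EIF4A2, a helicase subunit, read 4.58, 4.95 and 5.53 after HHT and 4.85, 5.60 and 5.20 in vehicle, overlapping groups near the filter level. That is its only single-gene probe set, and probe sets given to several genes were not used. The value may therefore not stand for the level of the gene. EIF4G2, an eIF4G relative without the cap-binding part, and EIF4B, which stimulates the helicase, fell by 0.35 and 0.27 as deposited and were not called otherwise, with EIF4G2 at 0.044 after quantile normalization and EIF4B at 0.011 with equal hybridisation controls. EIF4H, related to EIF4B, differed by 0.054 and was called higher under the other 3 scalings.

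eIF5A helps the ribosome through difficult stretches such as runs of proline and carries the amino acid hypusine, which the enzymes DHPS and DOHH make. Its 2 genes moved in opposite directions. EIF5A read 10.42, 10.50 and 10.49 after HHT and 11.56, 11.45 and 11.69 in vehicle, and fell by 1.10 (SE 0.0760, adjusted p = 1.11e-06, limma), or 2.14-fold. Its other 2 probe sets fell by 1.02 and 1.14. EIF5A2 read 10.24, 9.96 and 9.98 after HHT and 9.18, 9.40 and 9.48 in vehicle, a rise of 0.71 (SE 0.114, adjusted p = 0.000441, limma), or 1.63-fold. A second probe set of EIF5A2 rose by 1.22, and another differed by 0.16 and was not called. DHPS and DOHH differed by 0.13 and 0.17 and were not called as deposited or after quantile normalization. Both were called higher with equal hybridisation controls, and DHPS also with equal medians, while 2 dimmer probe sets of DHPS rose by 0.47 and 0.36.

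All 4 tested elongation genes fell as deposited, against 24.2% of all genes and 42.9% of genes with a mean signal of at least 11.22. Of the 4, EEF2K lay below that level. Under every scaling 1 of them fell, against 12.1% of all genes. EEF2K, the calcium-dependent kinase that inactivates elongation factor 2, read 9.41, 9.34 and 9.31 after HHT and 10.30, 10.17 and 10.09 in vehicle. It fell by 0.83 (SE 0.0893, adjusted p = 2.42e-05, limma), or 1.78-fold, and its other probe set fell by 1.38. EEF2, the translocase, EEF1A1, which delivers aminoacyl-tRNA, and EEF1D, part of the exchange factor of eEF1A, fell by 0.38, 0.32 and 0.31 as deposited and were not called under any other scaling, with EEF2 at 0.0059 and EEF1D at 0.063 after quantile normalization. EEF1A1 read 14.77, 14.83 and 14.86 after HHT and 15.27, 15.05 and 15.11 in vehicle, among the brightest signals of the factors. Its 3 other bright probe sets fell with changes from -0.36 to -0.29, while of 2 dimmer ones 1 fell by 1.00 and 1 fell by 1.14. EEF1A1 has many processed pseudogenes and is 1 of 7 factors represented by a probe set of the x_at type, whose probes can match other transcripts, so its value is uncertain. Of the genes given above as changed under every scaling, EIF2B4 and EIF3B are also read by such a probe set.

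Of the factors that end translation, the release pair and the recycling ATPase fell together. ETF1, which encodes eRF1 and reads the stop codon, read 12.31, 12.25 and 12.29 after HHT and 12.88, 12.94 and 12.95 in vehicle, and fell by 0.64 (SE 0.0526). GSPT1, which encodes its GTPase partner eRF3a, read 11.19, 11.28 and 11.47 after HHT and 12.43, 12.40 and 12.51 in vehicle, and fell by 1.13 (SE 0.0770, adjusted p = 1e-06, limma), or 2.19-fold. That probe set is also of the x_at type. Of the other 5 probe sets of GSPT1, 3 fell, with changes from -1.56 to -0.82, and 2 dim ones were not called. ABCE1, which splits the ribosome after release, read 11.23, 11.32 and 11.31 after HHT and 12.20, 12.47 and 12.51 in vehicle, and fell by 1.11 (SE 0.0823), and its other probe set fell by 1.13. MCTS1, which with DENR clears the small subunit and allows reinitiation, rose instead. It read 12.77, 12.64 and 12.72 after HHT and 11.95, 12.02 and 12.10 in vehicle, a rise of 0.68 (SE 0.0625, adjusted p = 7.37e-06, limma), or 1.61-fold. A dim second probe set of MCTS1 differed by 0.16 and was not called. DENR, its partner, differed by 0.060 and was not called as deposited, but a second probe set rose by 0.34, and the first was called higher under the other 3 scalings.

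**Figure D3:**
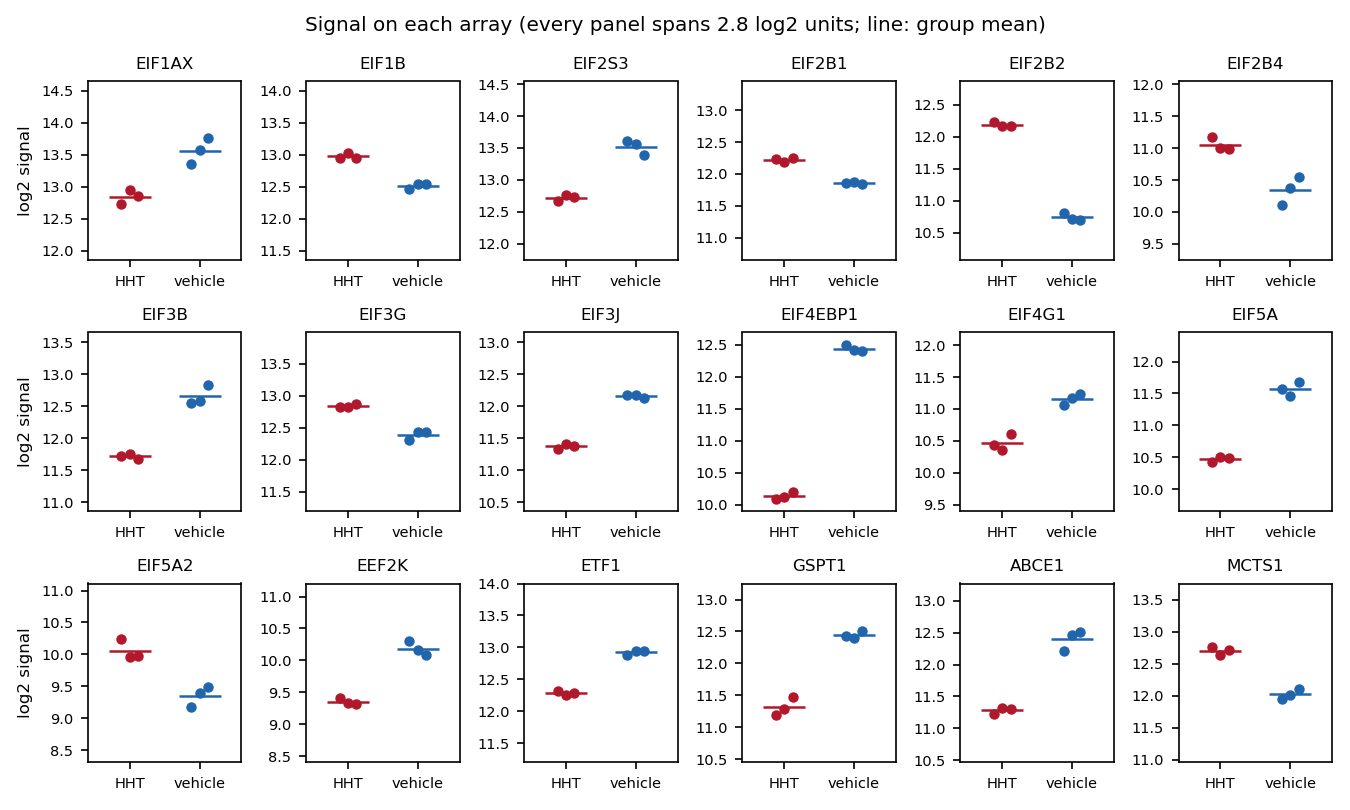
Log2 signal on each array for the 18 factors called the same way under all 4 scalings, HHT on the left and vehicle on the right of each panel, with group means as lines and the same span of 2.8 log2 units in every panel. In no panel do the 3 HHT arrays overlap the 3 vehicle arrays, but the genes were chosen by their calls on these values. Of all genes tested, 62.2% did not overlap. EIF4EBP1, EIF2B2, GSPT1, ABCE1 and EIF5A show the largest differences between means.

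Related factors were compared within arrays. Differences between 2 genes on the same array do not move when an array is multiplied by a constant, so they were compared directly for the 4 pairs of the list in which both genes were tested. EIF1 minus EIF1B averaged 1.73 ± 0.0800 after HHT and 2.37 ± 0.144 in vehicle (SD, n = 3), a contrast of -0.64. EIF4EBP1 minus EIF4EBP2 averaged -0.41 ± 0.101 after HHT and 1.54 ± 0.149 in vehicle, a contrast of -1.95. EIF5A minus EIF5A2 averaged 0.41 ± 0.201 after HHT and 2.21 ± 0.169 in vehicle, a contrast of -1.80. EIF4E minus EIF4E3 averaged 6.98 ± 0.305 after HHT and 6.20 ± 0.434 in vehicle, a contrast of 0.79. EIF4E3 lay at the filter level after HHT, so that contrast is not a measured size, and with 64 added to each signal it was 0.072. In each of the 4 the 3 HHT arrays lay on 1 side of the 3 vehicle arrays, and the exact two-sided permutation p was 0.1 (0.1 adjusted over the 4 pairs), the smallest that 3 against 3 arrays allow. A further pair was added after its values were seen. GSPT2, which encodes eRF3b and can stand in for eRF3a, read 9.90, 9.98 and 9.90 after HHT and 8.64, 8.93 and 8.88 in vehicle and rose by 1.11 (SE 0.104, adjusted p = 8.5e-06, limma) under all 4 scalings. The contrast of GSPT1 minus GSPT2 was -2.24, from 1.38 ± 0.156 after HHT and 3.63 ± 0.158 in vehicle.

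**Figure D4:**
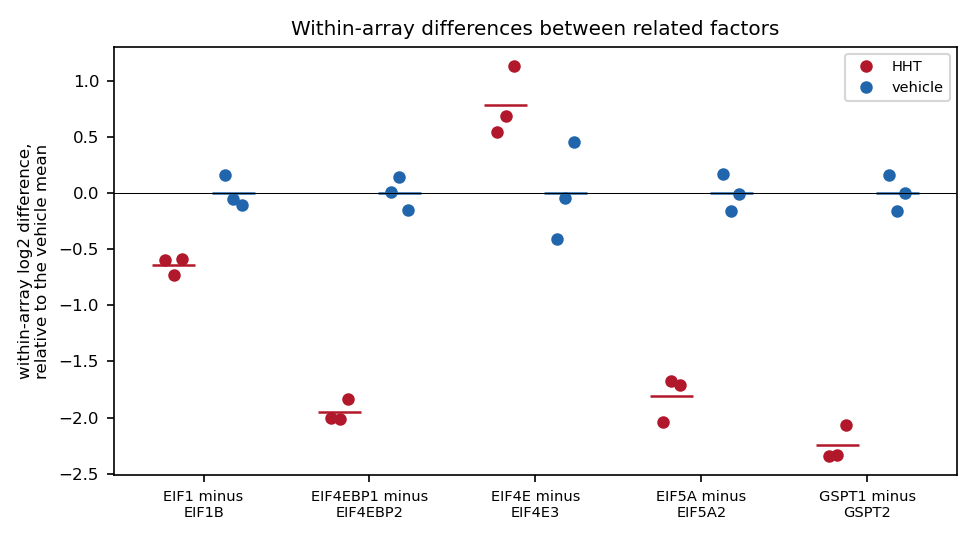
Within-array log2 difference between related factors on each array, relative to the vehicle mean of that pair, with HHT left of vehicle and group means as lines. The HHT arrays lie clear of the vehicle arrays in all 5 pairs, with contrasts of -0.64, -1.95, 0.79, -1.80 and -2.24; the one with EIF4E3 rests on signals near the filter level.

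Upstream sequence was read for 49 of the 58 factors that have a start in the RefSeq table of GRCh38.p14, in windows of 250 bases before the start and 50 after it. MYC, the gene of the series title, read 9.53, 9.75 and 9.97 after HHT and 14.15, 14.14 and 14.16 in vehicle, and fell by 4.40 (SE 0.0958, adjusted p = 5.29e-09, limma). Its protein, with MAX, binds the letters CACGTG. These letters, which are their own reverse complement, stood in a window of 11 of the 49 factors (22.4%) and of 8.77% of 27305 genes; by windows the shares were 16.7% of 66 and 7.26% of 35116. They stood in 6 of 24 factors that fell, 2 of 6 that rose and 3 of 13 that were not called. CCGGAAG, searched on both strands as the core bound by ETS factors, stood in 16 of the 49 (32.7%) and in 12.2% of all genes, and in 5 of 24 that fell, 3 of 6 that rose and 6 of 13 that were not called. TGATGNAA, searched on both strands as the element bound by ATF4 with CEBP partners, stood in 1 of 49 (2.04%) and in 4.46% of all genes. No match of 1 motif overlapped a match of another. A match describes letters only. The shares of all genes were counted over every gene with a window, not over the genes tested on the array or those as bright as the factors. Whether the shares differ from such genes was not tested.

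Of the 16 factors called the same way under all scalings that have a window, 4 hold CACGTG before the start. The share of all genes over these 250 bases alone was not counted. The 250 bases upstream of each of the 4 are printed. They lie, per RefSeq on GRCh38.p14, at chr3:40309457-40309706 on the plus strand for EIF1B, chr3:170908638-170908887 on the minus strand for EIF5A2, chr3:184314356-184314605 on the plus strand for EIF4G1, where 1 of 3 windows holds a match, and chr16:22206028-22206277 on the plus strand for EEF2K. Each is written 5′ to 3′ with CACGTG in capitals.
EIF1B: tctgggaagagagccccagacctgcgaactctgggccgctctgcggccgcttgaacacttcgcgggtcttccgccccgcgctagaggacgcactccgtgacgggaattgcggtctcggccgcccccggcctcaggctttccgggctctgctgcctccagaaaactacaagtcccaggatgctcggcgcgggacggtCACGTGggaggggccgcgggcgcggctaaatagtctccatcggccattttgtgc
EIF5A2: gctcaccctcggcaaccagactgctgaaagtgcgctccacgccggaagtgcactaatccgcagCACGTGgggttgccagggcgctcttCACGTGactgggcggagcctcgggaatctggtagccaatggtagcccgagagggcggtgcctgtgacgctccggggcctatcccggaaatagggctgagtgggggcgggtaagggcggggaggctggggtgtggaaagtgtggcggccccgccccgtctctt
EIF4G1: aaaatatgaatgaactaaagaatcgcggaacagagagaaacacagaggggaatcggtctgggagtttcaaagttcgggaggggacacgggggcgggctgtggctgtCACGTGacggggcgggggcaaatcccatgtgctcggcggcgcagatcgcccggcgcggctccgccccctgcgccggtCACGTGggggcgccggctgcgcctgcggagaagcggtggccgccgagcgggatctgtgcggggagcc
EEF2K: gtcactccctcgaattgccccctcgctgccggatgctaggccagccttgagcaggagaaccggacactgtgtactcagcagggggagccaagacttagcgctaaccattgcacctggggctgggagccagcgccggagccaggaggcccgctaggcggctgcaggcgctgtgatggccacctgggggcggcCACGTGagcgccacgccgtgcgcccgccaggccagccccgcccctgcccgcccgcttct
EIF1B and EIF5A2 rose, by 0.46 and 0.71, and EIF4G1 and EEF2K fell, by 0.69 and 0.83. EIF5A2 and EIF4G1 hold the letters 2 times and the other 2 genes once.

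Factors whose messenger RNA starts with a 5′ terminal oligopyrimidine (TOP) tract, a class translated under mTOR control, form a list within these genes. Of its 9 tested members 8 fell as deposited, with a median of -0.31, where 24.2% of all genes and 42.9% of those at or above 11.22 fell. However, EIF2S3 alone fell under every scaling, where 12.1% of all genes did. The median of the list stayed below that of all genes under each of the other scalings. With equal medians the list stood at -0.073 and all genes at 0.24. With equal hybridisation controls the list stood at -0.028 and all genes at 0.28, with 1 member called higher. After quantile normalization the list stood at 0.0059 and all genes at 0.050, with 3 members called higher.

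Partners of the cap and the poly(A) tail outside the 58 genes were measured as well. Of 13 tested, 7 fell and 3 rose as deposited, with a median of -0.22, where 24.2% of all genes fell and 29.6% rose. Under all 4 scalings 4 fell and 3 rose, where 12.1% of all genes fell and 27.4% rose. By size, EIF4A3, the helicase of the exon junction complex, fell by 1.21 (SE 0.0691) and PAIP2B, a repressor of poly(A)-binding protein, rose by 1.41 (SE 0.353), the first at 12.62, 12.58 and 12.48 after HHT and 13.87, 13.80 and 13.64 in vehicle. PAIP2B was dim, at 7.18, 6.99 and 6.77 after HHT and 5.66, 6.17 and 4.89 in vehicle. The rest of that set, named after their values were seen, were EIF4E2, a cap-binding repressor, PABPC1, the poly(A)-binding protein, and LARP1, which binds TOP messenger RNAs, which fell, with changes of -1.03, -0.62 and -0.75, and PAIP2 and PAIP1, which rose by 0.49 and 0.29. PAIP2 read 13.22, 13.20 and 13.21 after HHT and 12.79, 12.66 and 12.71 in vehicle, while PABPC1, which PAIP2 binds, read 14.13, 14.16 and 14.19 after HHT and 14.97, 14.71 and 14.66 in vehicle. Both pairs of groups stood apart.

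Among 7 other factors and eIF2 regulators, 2 rose as deposited and none fell, where 29.6% of all genes rose and 24.2% fell. They were GSPT2 and SECISBP2, which reads selenocysteine signals and rose by 0.51 (SE 0.115). Both kept the call under all scalings, where 27.4% of all genes rose. Quantile normalization left the count at 2, while 5 of the 7 were called higher once array medians, or else hybridisation controls, were equalised. Of 11 tested enzymes that modify factors, 5 fell and none rose as deposited, where the background was 24.2% and 29.6%. DPH7 and DPH2, which make the diphthamide of elongation factor 2, fell by 0.97 (SE 0.159) and 0.67 (SE 0.111) under every scaling, while the other 3 were not called with equal medians or equal hybridisation controls. Of 9 tested mitochondrial translation factors 4 rose and 3 fell, with a median of -0.0021, where 29.6% of all genes rose and 24.2% fell. Under all 4 scalings 4 rose and 2 fell, where 27.4% of all genes rose and 12.1% fell. MTIF3, the mitochondrial initiation factor 3, rose by 0.99 (SE 0.120) and TUFM, the mitochondrial elongation factor Tu, fell by 0.78 (SE 0.0604), both under every scaling.

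Other probe sets of the same genes gave a second reading, where 46.3% of all tested probe sets were called. Of the 29 called factors with another tested probe set, 15 had all others called the same way, 14 had at least 1 that was not called, and none had one called the opposite way. Of the 7 uncalled factors with another tested probe set, 5 had one that was called. EIF5, uncalled by its brightest probe set, is 1 of them, with others that fell, by changes from -0.87 to -0.35.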

How the data were processed

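RNA from 3 HHT and 3 vehicle samples of Kasumi-1 was hybridised to HG-U133 Plus 2.0 arrays. The table deposited by the authors holds a log2 signal for every probe set. The submitters' processing notes name MAS5 and give no version. No detection calls were used. Genes were named through the platform annotation: 41091 probe sets had 1 gene, 1801 several and 11721 none listed.

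Control probe sets (62 of 54675) and the 40% of the rest with the lowest means (level 4.80) were left out. The HHT minus vehicle change was fitted to the log2 values in R 4.3.3 with limma 3.58.1 (lmFit, then eBayes with a variance trend, no covariates). The number of arrays limits the precision. Pairs of genes were compared by exact permutation in scipy 1.17.1. The model was also run on simulated data with known changes added, and it recovered only part of them. Far fewer probe sets were changed there than were called in these data, so that recovery does not measure the sensitivity of the main fit. Same-numbered arrays of the 2 groups correlated by 0.065, -0.014 and 0.049 in their deviations. HHT arrays 1 and 3 matched the vehicle array of their own number best, and HHT array 2 did not. With 3 arrays per group this cannot settle whether the numbers mark pairs, and the main fit used no pairing.

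The members and lists were chosen with earlier results of these data known. In full were given, per complex, the called genes of largest rise and fall and both genes of each pair, and, of each other list, the 2 called genes of largest change. Genes beyond this rule were named after their values were seen. Alternatives were scaling, pseudocount, filter, variance model, array weights, replicate block, mean of probe sets, threshold and leaving out arrays.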

Additional observations from a re-analysis of the deposited data

How the results depend on the processing

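Scaling decided most calls. As deposited, 7 factors rose and 30 fell. The counts were 13 and 11 when array medians were set equal, 16 and 14 after quantile normalization, and 17 and 11 when hybridisation controls were set equal. The median change of -0.22 became 0.023, 0.021 and 0.068, where that of all genes moved from -4.15e-05 to 0.24, 0.050 and 0.28. Which scaling is right was not tested. Requiring an absolute log2 change of at least 1 left 1 rise and 5 falls. Averaging a gene's probe sets moved the median to -0.30. With no variance trend 22 fell. Leaving out 1 array at a time gave 7 to 8 rises, 26 to 29 falls and medians between -0.24 and -0.19.

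Single genes changed sign as follows, on the log2 scale. Equal medians gave EIF1 0.065, EIF2AK1 0.091, EIF2AK3 0.17, EIF2AK4 0.17, EIF2S1 0.036, EIF3D 0.010, EIF3E 0.036, EIF3F 0.0045, EIF3H 0.19, EIF3I 0.22, EIF3M 0.071, EIF4A2 0.041, EIF5 0.091 and EIF6 0.24. Quantile normalization gave EEF1D 0.063, EEF2 0.0059, EIF1 0.18, EIF3D 0.12, EIF3E 0.19, EIF3F 0.15, EIF3H 0.31, EIF3I 0.069, EIF3K 0.033, EIF3L 0.10, EIF3M 0.21, EIF4A2 0.063, EIF4G2 0.044 and EIF5 0.11. Equal hybridisation controls gave EIF1 0.11, EIF2AK1 0.14, EIF2AK3 0.21, EIF2AK4 0.22, EIF2S1 0.081, EIF3D 0.055, EIF3E 0.081, EIF3F 0.049, EIF3H 0.23, EIF3I 0.26, EIF3K 0.022, EIF3M 0.12, EIF4A2 0.086, EIF4B 0.011, EIF5 0.14 and EIF6 0.28. The mean of probe sets gave EIF2B5 -0.58 and EIF3F 0.018. Leaving out arrays put DHPS between -0.0098 and 0.21, EIF2AK4 between -0.17 and 0.014, EIF3I between -0.099 and 0.034, EIF4A2 between -0.45 and 0.022 and EIF6 between -0.041 and 0.031. Of the called factors, EIF1, EIF2S1, EIF3E, EIF3M and EIF4E3 lost the call without at least 1 of the arrays.

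With the replicate block, 7 rose and 30 fell, and all 52 factors kept their call. The pair contrasts kept their sign under every alternative run, with EIF1 minus EIF1B between -0.75 and -0.46, EIF4EBP1 minus EIF4EBP2 between -2.03 and -1.79, EIF4E minus EIF4E3 between 0.072 and 1.01, and EIF5A minus EIF5A2 between -1.89 and -1.69. The added GSPT1 minus GSPT2 lay between -2.34 and -2.01. Signals near the filter level limit EIF4A2, EIF4E3 and dim probe sets. With 3 arrays per group no permutation p can fall under 0.1.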

Other observations

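Probe sets of 1 gene differed in the size of their change. Of the 82 further tested probe sets of the factors, 48 had a lower change than the brightest probe set of their gene. For EIF3M, the brightest probe set fell by 0.17, the next by 0.26, and dimmer ones by 0.58, 1.46 and 1.10. A dim probe set of EIF2AK4 averaged 5.47 after HHT and 7.19 in vehicle, while the bright one averaged 10.32 and 10.39. For EEF1A1, the probe set at 10.22 after HHT and 11.22 in vehicle fell by 1.00, and the one at 14.82 and 15.14 fell by 0.32. Where in the transcripts these probe sets lie was not analysed here.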
